A study of Mus musculus with 48 samples.

Results

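Heparan sulfate is a long sugar chain carried by proteoglycans on the cell surface and in the matrix, where it binds growth factors, morphogens and synaptic adhesion proteins. The chain is assembled as a plain polymer and then edited in the Golgi. N-deacetylase/N-sulfotransferases (Ndst) replace acetyl by sulfate on glucosamine and set where later edits can fall, after which 6-O- and 3-O-sulfotransferases (Hs6st, Hs3st) add further sulfates. Outside the cell, the endosulfatases Sulf1 and Sulf2 remove 6-O-sulfate again, so the set of enzymes a neuron transcribes bears on which ligands its chains can hold.

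The genes described here are 10 of these modifying enzymes out of 37620 genes in the count table: Ndst1, Ndst2, Ndst3 and Ndst4, Hs6st2, Hs3st1, Hs3st2 and Hs3st4, and Sulf1 and Sulf2. They were taken as a list of symbols, chosen with earlier results of these data known, and all 10 were found by Ensembl identifier. The study sequenced RNA of 16 populations of mouse hippocampal neurons, 3 libraries each. Of these, 10 were pyramidal cells of CA1: those of its dorsal, intermediate or ventral part; proximal and distal; superficial and deep; and cells selected by their projection, dorsal ones to the postsubiculum and ventral ones to the amygdala or the nucleus accumbens. The other 6 were pyramidal cells of dorsal and of ventral CA3, granule cells from the dorsal and the ventral dentate gyrus (DG), and interneurons expressing parvalbumin (PV) or somatostatin (SST). Cells were picked by hand for their fluorescence from dissected slices, per the labels. Strain, age, sex, and the agent that labelled each population were not given in the sources used here, and the labels name no treatment of any group. The series text calls the libraries biological replicates without naming separate animals, and p-values therefore reflect only the spread among these samples.

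Reads in genes numbered 5116568 to 31984948 per library, and ventral CA1 libraries were shallower than dorsal ones. Levels are given as CPM, the usual unit for counts relative to library size, after normalisation over the 48 libraries. The 4 CA1 markers summed to at least 431.5 CPM in each CA1 pyramidal library and to at most 142.6 CPM elsewhere, although one of them, Pou3f1, was at 0. The 4 DG markers summed to at least 1474 CPM in DG libraries and at most 25.8 CPM elsewhere, and the 4 CA3 markers to at least 141.6 CPM in CA3 libraries and at most 126.8 CPM elsewhere. Some libraries carried transcripts of other cells. The 5 interneuron markers summed to 261.5 to 1024 CPM in deep CA1 libraries, and to 259.6 CPM in proximal replicate 1, against 5401 to 7020 CPM in PV and SST libraries. The 5 oligodendrocyte markers reached 227.8 CPM in a proximal library, 184.9 CPM in a dorsal CA3 library and 722.1 CPM in an SST library. PV libraries held 239.6 to 920.1 CPM of Sst, against 3590 to 6683 CPM in SST libraries. Pvalb was at 304.3 to 368.2 CPM in PV and 1.575 to 54.5 CPM in SST libraries. The part of this overlap in differences between PV and SST cells was not tested. Astrocyte and microglia markers stayed at or below 23.7 and 51.3 CPM in every library. These pools cannot tell fewer cells that express a gene from less RNA per cell.

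**Figure D1:**
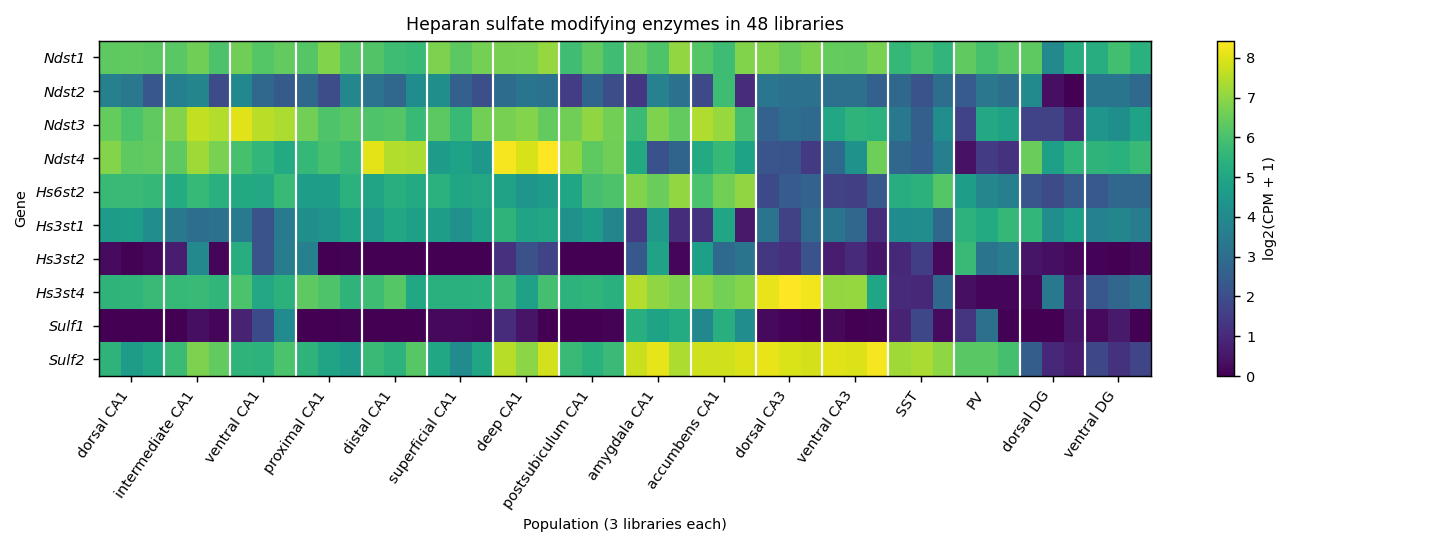
Level of each of the 10 enzymes in each of the 48 libraries, as log2(CPM + 1), with the populations separated by white lines. Ndst1 is of similar colour throughout, Ndst3, Ndst4, Hs6st2, Hs3st4 and Sulf2 change by population, and Hs3st2 and Sulf1 are near 0 in most libraries.

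The promoters of 4 of the 5 members called between the pyramidal cell regions are printed: Ndst3 and Hs6st2, like Ndst4, were higher in CA1 than in CA3, and Sulf2 and Hs3st4 were lower. Each sequence is the 250 bases before 1 annotated start of transcription on the gene's own strand, 5′ to 3′. Starts are from RefSeq on build GRCm38.p6, which is not the build of the deposited tables. There were 2 starts listed for Ndst3, Hs6st2 and Sulf2 and 1 for Hs3st4. Whether these cells use the starts printed was not tested. RefSeq promoters were matched for 7 of the 10 members.
Ndst3, chr3:123672478-123672727, minus strand: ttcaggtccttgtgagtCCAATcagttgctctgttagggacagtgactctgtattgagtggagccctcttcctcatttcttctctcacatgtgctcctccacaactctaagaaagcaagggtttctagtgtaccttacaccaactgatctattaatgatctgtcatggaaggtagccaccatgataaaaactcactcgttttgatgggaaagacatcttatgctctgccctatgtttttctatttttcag
Hs6st2, chrX:51681603-51681852, minus strand: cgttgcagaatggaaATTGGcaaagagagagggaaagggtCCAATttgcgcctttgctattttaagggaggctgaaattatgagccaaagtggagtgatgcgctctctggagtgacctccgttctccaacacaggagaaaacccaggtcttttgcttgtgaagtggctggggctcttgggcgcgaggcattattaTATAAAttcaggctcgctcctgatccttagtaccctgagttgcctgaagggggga
Sulf2, chr2:166155286-166155535, minus strand: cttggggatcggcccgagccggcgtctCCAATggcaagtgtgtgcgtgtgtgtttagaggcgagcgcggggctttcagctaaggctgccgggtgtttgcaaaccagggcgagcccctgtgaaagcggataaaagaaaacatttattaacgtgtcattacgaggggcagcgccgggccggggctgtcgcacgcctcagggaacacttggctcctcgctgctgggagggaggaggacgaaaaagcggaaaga
Hs3st4, chr7:123982578-123982827, plus strand: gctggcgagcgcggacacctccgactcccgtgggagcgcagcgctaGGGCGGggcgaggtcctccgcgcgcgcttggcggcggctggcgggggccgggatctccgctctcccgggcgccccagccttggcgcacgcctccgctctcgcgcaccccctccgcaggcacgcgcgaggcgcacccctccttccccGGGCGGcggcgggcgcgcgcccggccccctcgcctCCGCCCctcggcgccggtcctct

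Capitals mark matches, on either strand, to 5 short motifs: the TATA box TATAAA, the CCAAT box CCAAT, the GC box GGGCGG, the E-box CACGTG and the cyclic AMP response element TGACGTCA. No match overlapped another. The CCAAT box occurred 1 time in Ndst3, 2 times in Hs6st2 and 1 time in Sulf2, and 33.8% of 32851 promoter windows of the same length held it. Hs6st2 also held 1 TATA box, found in 12.4% of windows, and Hs3st4 held 3 GC boxes, found in 32.7%. None of the 4 windows held an E-box or a cyclic AMP response element, letters that 6.02% and 1.55% of windows contained. Base composition differed among the 4: the Ndst3 window was 42.4% G or C with 1 CpG and the Hs6st2 window 50.0% with 7, while Sulf2 reached 60% with 21 and Hs3st4 82.0% with 43. Across all windows the median was 52.4% G or C with 6 CpG. The matches describe letters in these windows and were not tied to the measured levels.

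Between the cell classes of the hippocampus, members were counted beside the share of all genes that differed. Because the list was chosen with earlier results of these data known, these counts are descriptions and no test of the list. Each comparison was fitted with edgeR over all its genes, and calls are differences with an adjusted p under 0.05. Between CA3 and DG 7 of the 10 members were called, 5 higher in CA3 and 2 higher in DG, where 36.5% of all genes tested were called. Between CA1 and DG 6 members were called, all higher in CA1, beside 33.1% of all genes. For CA1 and CA3 the count was 5 members, 3 higher in CA1 and 2 higher in CA3, against 13.5% of all genes. Interneurons and dorsal CA1 pyramidal cells differed in 6 members, 3 in each direction, beside 32.7% of all genes. The labels place the interneurons in CA1 without a position on its long axis. They were tested against no other pyramidal population. PV and SST interneurons differed in 2 members, Hs3st2 and Sulf2, beside 3.51% of all genes.

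Comparisons within a region were counted in the same way. Along the long axis of CA1, 4 of 9 members tested were called between dorsal and ventral cells, beside 15.1% of all genes, 2 of 9 between dorsal and intermediate cells, beside 4.93%, and 1 of 9 between intermediate and ventral cells, beside 5.03%. Superficial and deep CA1 cells differed in 3 of 9 members tested, all higher in deep cells, beside 2.48% of all genes. Proximal and distal cells differed in 1 of 8, beside 1.06%. Dorsal and ventral CA3 differed in 2 of 10, beside 4.97%, and dorsal and ventral DG in 1 of 10, beside 19.4%. In the remaining pair of comparisons no member was called. Between amygdala- and accumbens-projecting cells 0 of 10 members were called by edgeR, 0 had an unadjusted p under 0.05, DESeq2 called 0, and 0.0231% of all genes were called. Between postsubiculum-projecting and dorsal CA1 cells edgeR called 0 of 8, 1 had an unadjusted p under 0.05, DESeq2 called 1, and 10.8% of all genes were called. A single fit of all 48 libraries, which shares its estimate of spread, ended 12 of the calls given below: Ndst3, Ndst4 and Hs3st1 between dorsal and ventral CA1, Ndst3 and Sulf2 between dorsal and intermediate CA1, Ndst4 between intermediate and ventral CA1 and between proximal and distal CA1, Hs3st2 between superficial and deep CA1 and between CA3 and DG, Hs3st2 and Sulf2 between PV and SST cells, and Ndst3 in the interaction of CA1 and DG with the long axis.

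**Figure D2:**
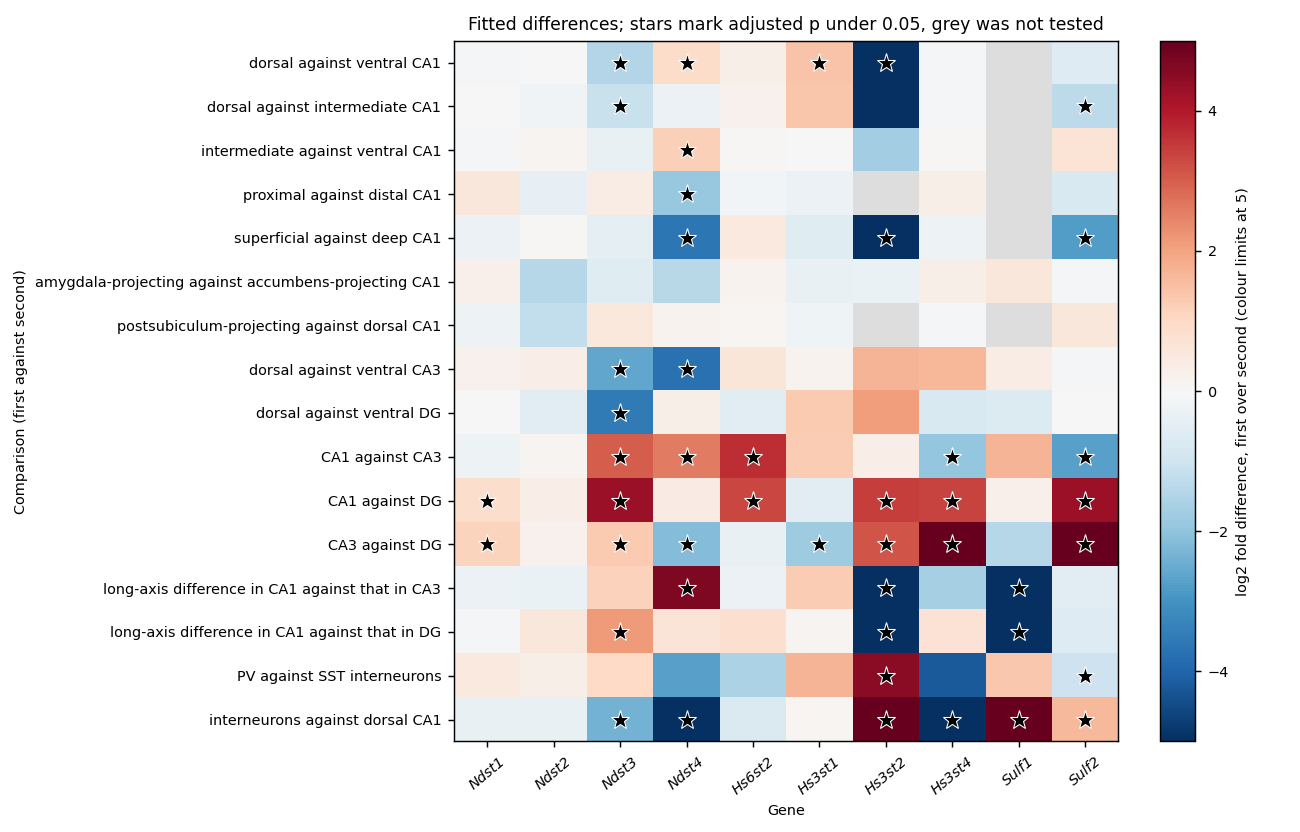
Fitted log2 difference of each member (columns) in each of the 16 comparisons (rows), first group over second, with colours limited at 5 either way. Stars mark an adjusted p under 0.05 and grey cells were not tested because the gene failed the filter on low counts. Ndst3 and Ndst4 carry 9 stars each and Ndst2 carries 0.

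Ndst1, the broadly expressed N-deacetylase/N-sulfotransferase, was present at 43.8 to 115.5 CPM in the means of all 16 populations, a 2.64-fold range. No pair of neighbours in the order of its means separated: the libraries overlapped at all 15 steps from deep CA1 down to dorsal DG. The 6 CA3 libraries lay between 82.9 and 113.7 CPM with a median of 99.3, the 6 CA1 libraries of the long-axis set between 72.6 and 95.6 with a median of 81.2, and the 6 DG libraries between 14.7 and 79.8 with a median of 38.9. CA3 and DG did not overlap, while 1 DG library fell inside the CA1 range. Ndst1 was 2.19-fold higher in CA3 than in DG (log2 difference 1.13 ± 0.26 SE, edgeR adjusted p = 0.00157) and 1.84-fold higher in CA1 than in DG (0.88 ± 0.25, adjusted p = 0.0109). The 3 dorsal DG libraries were widely spread, at 79.8, 14.7 and 36.9 CPM. Within CA1 it was called by edgeR in 0 of 7 comparisons, with 1 unadjusted p under 0.05 and 0 calls by DESeq2. Between CA1 and CA3 the fitted difference was -0.25 ± 0.25 on the log2 scale (adjusted p = 0.636).

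Ndst2, best known for heparin synthesis in mast cells, had low means over a 5.66-fold range, against 2.64-fold for Ndst1. Its single libraries ran from 0 to 55.4 CPM. Its population means ran from 3.48 CPM in postsubiculum-projecting cells to 19.7 CPM in accumbens-projecting cells. That highest mean rested on 1 library: the 3 values were 2.67, 55.4 and 1.10 CPM. The next highest mean was 10.1 CPM, in distal CA1. It was called in 0 of the 16 comparisons by edgeR and in 0 by DESeq2, and 0 had an unadjusted p under 0.05. Leaving out dorsal DG replicate 1, the only library of that group with more than 2 Ndst2 reads, placed Ndst2 lower in dorsal than in ventral DG, at -5.76 on the log2 scale (adjusted p = 0.000269), lower in DG than in CA1, with CA1 higher by 2.96 (adjusted p = 0.000263), and lower than in CA3, with CA3 higher by 2.83 (adjusted p = 0.000394).

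Ndst3 and Ndst4, the family members found chiefly in the nervous system, had wider ranges over the populations than Ndst1 and Ndst2. Ndst3 means spanned 1.80 to 207.1 CPM, a 115-fold range, and Ndst4 means 1.14 to 300.1 CPM, a 263-fold range. Each was called in 9 of the 16 comparisons. Over the 16 population means of log2(CPM + 1) their profiles gave Pearson r = 0.49 and Spearman rho = 0.44. Such correlations are descriptions, since many of the 16 populations are overlapping samples of CA1.

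In each of the 3 regions the population labelled ventral had more Ndst3 than the dorsal one. In dorsal CA1 the libraries held 84.9, 65.1 and 81.8 CPM, in intermediate CA1 113.6, 199.1 and 174.9 CPM, and in ventral CA1 264.6, 188.1 and 168.6 CPM. Dorsal libraries lay below all intermediate and all ventral ones, whereas intermediate and ventral libraries overlapped. The fitted level was 2.77-fold higher in ventral than in dorsal CA1 (log2 difference -1.47 ± 0.20 SE, dorsal over ventral, edgeR adjusted p = 2.63e-05) and 2.15-fold higher in intermediate than in dorsal CA1 (-1.10 ± 0.20, adjusted p = 0.00188). Between intermediate and ventral cells the difference was -0.37 ± 0.20 (adjusted p = 0.357). The ventral CA1 cells selected by projection had lower means, with 52.3, 109.3 and 84.4 CPM in amygdala-projecting and 172.5, 140.0 and 60.5 CPM in accumbens-projecting libraries, and both sets overlapped dorsal CA1.

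Dorsal CA3 libraries held 5.30, 7.24 and 6.44 CPM of Ndst3 and ventral CA3 libraries 31.2, 43.8 and 41.2 CPM. No dorsal library came near a ventral one, and the fitted ratio was 6.03 (log2 difference -2.59 ± 0.28, adjusted p = 3.28e-06). Granule cells repeated the direction at lower levels, with 2.26, 2.18 and 0.95 CPM in dorsal DG and 20.2, 17.3 and 27.8 CPM in ventral DG. The dorsal DG values rest on 18, 16 and 7 reads. Ventral DG was 11.7-fold higher (-3.55 ± 0.32, adjusted p = 2.09e-07). The dorsal-to-ventral difference was smaller in CA1 than in DG by 2.11 ± 0.41 on the log2 scale, an interaction of region and long axis that was called (adjusted p = 0.00211), while the interaction of CA1 with CA3, 1.15 ± 0.37, was not (adjusted p = 0.112). Counts of members called for these 2 interactions were 3 of 10 each, beside 3.52% of all genes for CA1 with CA3 and 9.71% for CA1 with DG.

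Regions differed in Ndst3 as well. The 6 CA1 libraries ranged from 65.1 to 264.6 CPM with a median of 126.8, the 6 CA3 libraries from 5.30 to 43.8 with a median of 19.2, and the 6 DG libraries from 0.95 to 27.8 with a median of 9.80. CA1 overlapped neither of the others. Averaged over dorsal and ventral cells, CA1 was 8.09-fold above CA3 (3.02 ± 0.20, adjusted p = 7.99e-10) and 20.1-fold above DG (4.33 ± 0.22, adjusted p = 3.89e-12). CA3 stood 2.49-fold above DG with overlapping libraries (1.32 ± 0.21, adjusted p = 3.64e-05). Interneurons were low, from 2.23 to 32.9 CPM in 6 libraries, and 5.14-fold below dorsal CA1 (-2.36 ± 0.57, adjusted p = 0.00694), a call that was lost without the filter on low counts (adjusted p = 0.0694).

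Ndst4 marked depth in the CA1 cell layer. Superficial libraries held 24.1, 28.8 and 21.7 CPM and deep libraries 315.7, 240.2 and 344.3 CPM. Every deep library was more than 200 CPM above every superficial one. The fitted level was 12.4-fold higher in deep cells (log2 difference -3.63 ± 0.18 SE, superficial over deep, adjusted p = 1.89e-06). Interneuron markers were also higher in the deep libraries, at 261.5 to 1024 CPM against 16.6 to 195.8 CPM in superficial ones. The 3 mural cell markers were too, at 28.3 to 114.6 against 4.16 to 7.50 CPM, of which Rgs5 made up most while Pdgfrb stayed at or below 1.55 CPM. Ndst4 itself was at most 11.4 CPM in any SST or PV library. The 3 choroid plexus markers (Ttr, Folr1 and Kl) summed to 86.4 to 148.9 CPM in deep and 36.6 to 99.05 CPM in superficial libraries. In both populations 2 of the 3 averaged under 1 CPM. Whether interneuron, mural or choroid plexus RNA contributed to the Ndst4 difference was not tested.

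Across the transverse axis, proximal libraries held 47.5, 62.0 and 51.7 CPM of Ndst4 and distal libraries 270.8, 174.5 and 167.3 CPM. The groups were clearly apart and distal cells were 3.74-fold higher (-1.90 ± 0.21, adjusted p = 0.00219). Choroid plexus markers were also higher in distal libraries, at 77.0 to 132.0 CPM against 40.3 to 54.5 CPM in proximal ones, and their part was not tested. With the 2 proximal libraries that carried interneuron or oligodendrocyte markers left out, a choice made after seeing the data, the difference was -1.69 with 1 proximal library remaining, whose spread was taken to be that of the distal ones, and it was no longer called (adjusted p = 0.148).

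Along the long axis of CA1, Ndst4 took the opposite direction to Ndst3. Dorsal libraries held 114.8, 81.0 and 84.0 CPM, intermediate ones 79.2, 149.2 and 106.7 CPM, and ventral ones 62.2, 46.6 and 34.4 CPM. Ventral libraries lay below all of the others. Dorsal cells were 1.89-fold (0.92 ± 0.24, adjusted p = 0.0103) and intermediate cells 2.31-fold (1.21 ± 0.24, adjusted p = 0.00403) above ventral cells. The dorsal difference was lost without dorsal CA1 replicate 1, at 0.75 (adjusted p = 0.0715), and without ventral CA1 replicate 3, at 0.73 (adjusted p = 0.0591).

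In CA3 the direction was reversed. Dorsal CA3 libraries held 3.70, 3.57 and 1.68 CPM of Ndst4 and ventral ones 6.35, 19.3 and 94.3 CPM. Dorsal libraries were all below the ventral ones, which ranged widely. The fitted ratio was 13.3 (-3.73 ± 0.70, adjusted p = 0.00198), and without ventral CA3 replicate 3 the log2 difference was -2.08 (adjusted p = 0.0114). That library also held less of the CA3 marker Coch, with 25 CPM, than its partners, with 160.0 and 168.0 CPM. DG libraries overlapped, at 90.8, 26.0 and 44.8 CPM in dorsal and 44.2, 41.1 and 51.1 CPM in ventral cells (0.28 ± 0.61, adjusted p = 0.792). The interaction of CA1 with CA3 was called for Ndst4 at 4.67 ± 0.92 (adjusted p = 0.00439) and stood at 3.03 without ventral CA3 replicate 3 (adjusted p = 0.00662).

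Among regions, Ndst4 was 6.10-fold higher in CA1 than in CA3 (2.61 ± 0.47, adjusted p = 0.000423) and 4.53-fold higher in DG than in CA3 (-2.18 ± 0.46, CA3 over DG, adjusted p = 0.00092). The median of 6 libraries was 71.6 CPM in CA1, 5.02 in CA3 and 44.5 in DG. CA3 overlapped both through the library of 94.3 CPM. Without it the differences were 3.43 and -3.00. PV cells had the lowest mean of the 16 populations, 1.14 ± 0.74 CPM (SD, n = 3), and interneurons were 31.6-fold below dorsal CA1 (-4.98 ± 0.43, adjusted p = 2.09e-06).

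**Figure D3:**
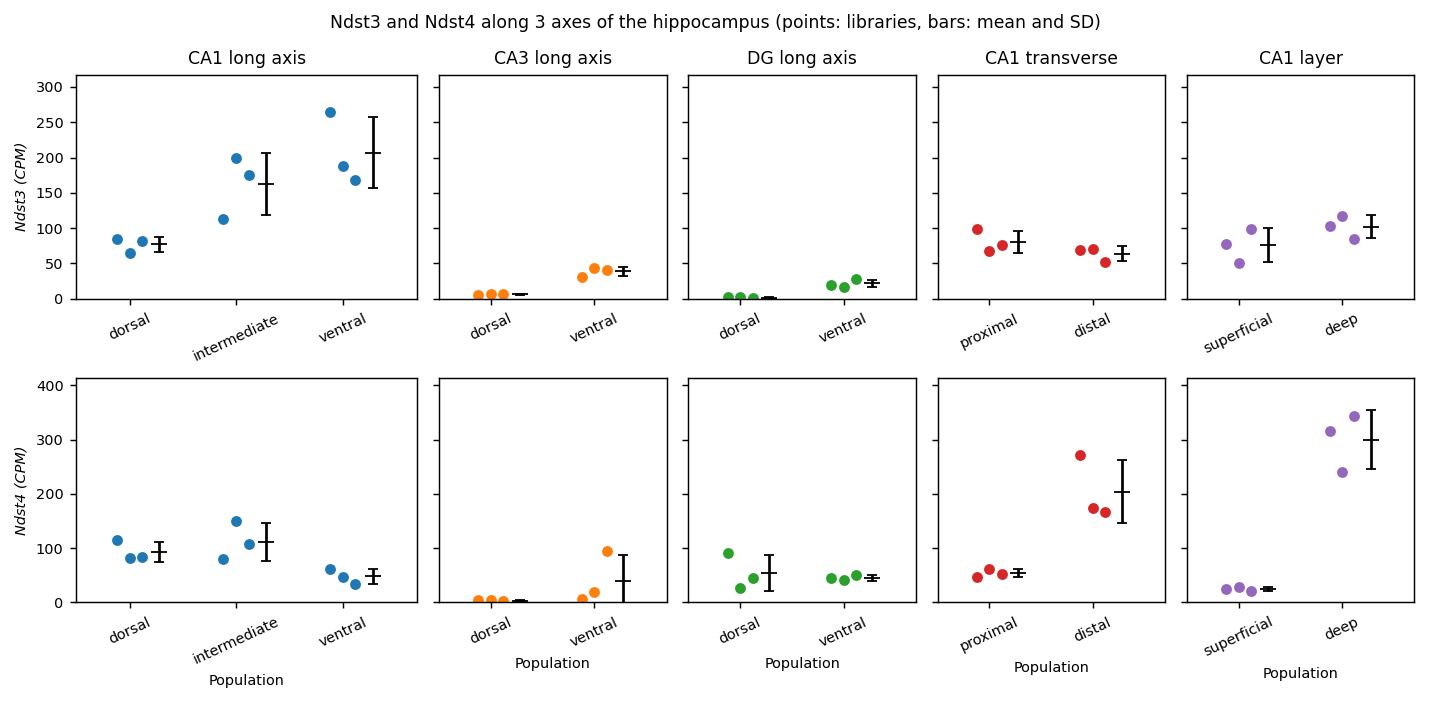
Ndst3 (top) and Ndst4 (bottom) in CPM per library, with mean and SD beside the points, for the long axis of CA1, CA3 and DG, the transverse axis of CA1 and the depth of its cell layer. Ndst3 is highest in the ventral population plotted for each region, and Ndst4 separates deep from superficial and distal from proximal cells.

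Because FPKM is per transcript length, it allows the 4 Ndst transcripts of one population to be compared with each other. In dorsal CA3 the Ndst1 transcript made up 82.7% ± 2.89 of the summed Ndst FPKM (SD, n = 3), and Ndst3 and Ndst4 made up 6.49% ± 2.50 and 2.96% ± 0.93. CA1 cells divided the sum differently by position. Ndst3 made up 63.5% ± 2.85 in ventral CA1 and 30.1% ± 1.40 in dorsal CA1. In amygdala-projecting cells Ndst1 made up 49.0% ± 8.09 and Ndst3 37.3% ± 14.9, and in accumbens-projecting cells 34.1% ± 24.8 and 40.7% ± 18.3. Ndst4 made up 63.5% ± 9.04 in deep CA1, 67.7% ± 4.59 in distal CA1 and 16.2% ± 5.57 in superficial CA1. In granule cells Ndst4 had the largest share, with 59.6% ± 18.8 in dorsal and 47.9% ± 0.68 in ventral DG, and in both interneuron classes Ndst1 had it, with 64.2% ± 10.8 in SST and 63.1% ± 19.9 in PV. The summed Ndst FPKM itself was 155.7 ± 14 in deep CA1 and 53.0 ± 13.1 in superficial CA1, and it was 19.8 ± 4.57 in SST cells, the lowest of the 16 means. These shares describe transcripts and were not tested.

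**Figure D4:**
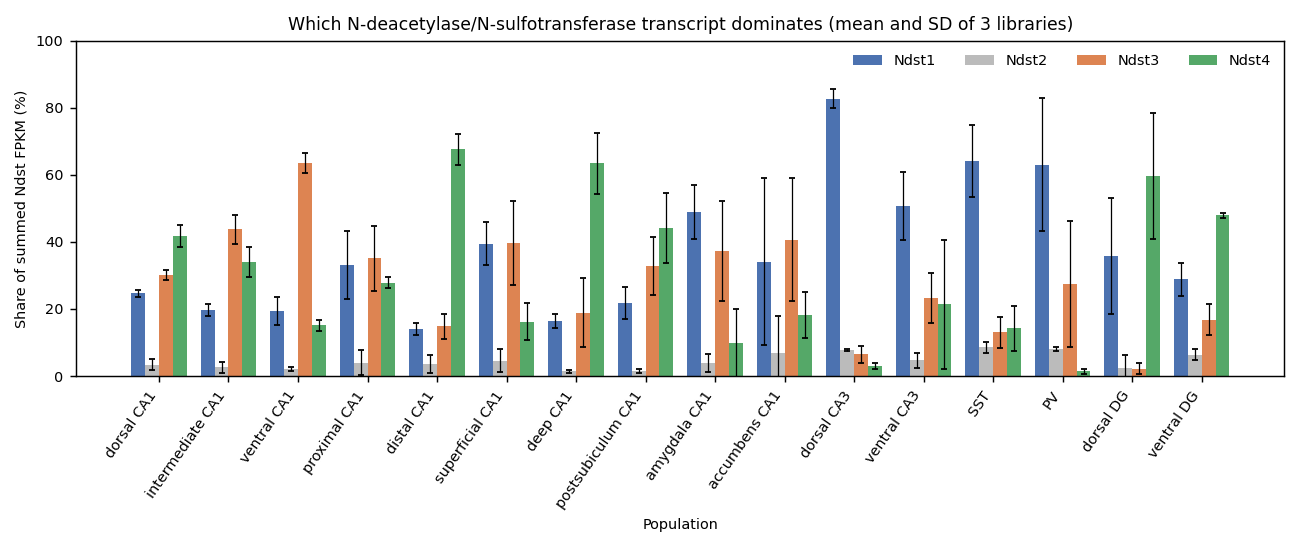
Share of each Ndst gene in the summed Ndst FPKM of a population, as mean with SD of 3 libraries. By mean, Ndst3 leads in ventral CA1 not selected by projection, and Ndst4 in distal and deep CA1 and in both DG populations. Ndst1 leads in CA3, in interneurons and in amygdala-projecting cells.

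Hs6st2 adds sulfate at the 6-O position, the mark that the Sulf enzymes remove. It was highest in the 2 ventral projection populations. Amygdala-projecting libraries held 114.3, 90.8 and 132.3 CPM and accumbens-projecting libraries 64.9, 99.1 and 130.5 CPM, which overlapped. The other CA1 populations lay between means of 24.2 CPM in deep cells and 52.0 CPM in postsubiculum-projecting cells, and both projection populations lay above the ventral CA1 libraries, at 33.0 to 50.7 CPM, a difference that was not tested. In the 7 comparisons run within CA1, edgeR called Hs6st2 in 0, as did DESeq2, with 0 unadjusted p-values under 0.05. Superficial and deep libraries did not overlap, at 31.0 to 40.7 and 20.6 to 27.98 CPM, yet the difference of 0.50 ± 0.28 on the log2 scale was not called (adjusted p = 0.503).

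CA3 and DG were nearly without Hs6st2. The 6 CA3 libraries held 2.01 to 5.34 CPM with a median of 3.40, the 6 DG libraries 2.85 to 5.94 with a median of 4.25, and the 6 CA1 libraries 33.0 to 50.7 with a median of 49.1. CA1 was apart from both, by 13-fold over CA3 (3.70 ± 0.29, adjusted p = 9.87e-09) and 10.1-fold over DG (3.33 ± 0.29, adjusted p = 1.34e-08). SST libraries held 37.2, 41.5 and 72.3 CPM and PV libraries 25.6, 14.1 and 11.4 CPM. The groups did not overlap, but the difference of -1.57 ± 0.44 was not called by edgeR (adjusted p = 0.0852), while DESeq2 called it (adjusted p = 0.00976).

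Among the 3-O-sulfotransferases, Hs3st4 had the steepest regional profile. Dorsal CA3 libraries held 285.6, 342.8 and 300.6 CPM, and no library of another population reached the lowest of them. Ventral CA3 libraries held 134.3, 137.3 and 30.6 CPM, the last being replicate 3, the library that also stood apart for Ndst4 and Coch. The difference between dorsal and ventral CA3 was 1.64 ± 0.68 on the log2 scale without overlap of the libraries, and was not called (adjusted p = 0.241). The 10 CA1 populations had means from 40.1 CPM in superficial cells to 138.6 CPM in amygdala-projecting cells. Amygdala-projecting libraries, at 110.3 to 175.6 CPM, and accumbens-projecting libraries, at 101.4 to 123.0 CPM, lay above the ventral CA1 libraries, at 32.8 to 64.8 CPM, a difference that was not tested. In the 7 comparisons run within CA1 it was called in 0 by edgeR and by DESeq2, with 0 unadjusted p-values under 0.05.

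Granule cells and interneurons held little Hs3st4. The 6 DG libraries ranged from 0.13 to 9.65 CPM with a median of 4.88, against medians of 44.3 in CA1 and 211.4 in CA3. CA3 was 39.3-fold above DG (5.30 ± 0.58, adjusted p = 1.57e-06) and CA1 10.4-fold (3.37 ± 0.54, adjusted p = 0.000117). Dorsal DG replicate 2 held 9.65 CPM where its partners held 0.13 and 0.54, and without it the differences were 6.98 and 5.05. Between CA1 and CA3 the fitted value was -1.92 ± 0.49 (adjusted p = 0.0118), and without the filter on low counts it was not called (adjusted p = 0.0562). The CA1 libraries held 32.8 to 64.8 CPM, 5 CA3 libraries lay above them and ventral CA3 replicate 3, at 30.6 CPM, lay below them. Interneurons, at 0.07 to 6.10 CPM, were 71.9-fold below dorsal CA1 (-6.17 ± 0.63, adjusted p = 9.62e-06), and without SST replicate 3 the difference was -6.91.

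Hs3st1, which makes the antithrombin-binding form of heparan sulfate, was moderate and variable. Its highest mean was 41.8 ± 6.996 CPM in PV cells (SD, n = 3), and the lowest were 5.27 and 5.80 CPM in ventral and dorsal CA3. Dorsal CA1 libraries held 24.3, 25.3 and 16.6 CPM and ventral ones 9.99, 3.48 and 10.3 CPM. These groups did not overlap and dorsal cells were 2.67-fold higher (1.42 ± 0.41, adjusted p = 0.0208). The call was lost without dorsal CA1 replicate 1 (adjusted p = 0.082), dorsal CA1 replicate 2 (adjusted p = 0.0842) or ventral CA1 replicate 2, where the value was 1.08 (adjusted p = 0.0815). Intermediate CA1, at 9.55, 7.29 and 7.95 CPM, also lay below dorsal CA1 without being called (1.39 ± 0.40, adjusted p = 0.0533), and DESeq2 called it (adjusted p = 0.00877). Between CA3 and DG the libraries lay apart, at 1.17 to 8.78 CPM with a median of 6.30 in CA3 and 11.0 to 47.2 with a median of 15.2 in DG. DG was 3.46-fold higher (-1.79 ± 0.44, CA3 over DG, adjusted p = 0.0033). In the ventral projection populations 1 library of each stood above the rest: 21.9 CPM against 1.64 and 1.14 in amygdala-projecting cells, and 29.9 CPM against 1.34 and 0.49 in accumbens-projecting cells.

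Hs3st2, a neuronal 3-O-sulfotransferase, was sparse and uneven. It had no read in any library of distal, superficial or postsubiculum-projecting CA1, where 3 reads per library would be 0.13, 0.13 and 0.22 CPM on average. As the reads carry no molecular identifiers and come from amplified cDNA, this floor covers counting error only. PV libraries held 50.4, 8.48 and 10.9 CPM and SST libraries 0.93, 1.93 and 0.15 CPM. PV lay above SST, by 23.1-fold in the fit (4.53 ± 1.02, adjusted p = 0.039). The call was lost without PV replicate 1, where the difference was 3.25 (adjusted p = 0.253), and the adjusted p was 0.0519 to 0.104 without PV replicate 2, PV replicate 3 or SST replicate 1. Without SST replicate 2 the difference was 5.42 (adjusted p = 0.0296).

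Along the CA1 long axis Hs3st2 was near 0 in dorsal cells and present in ventral cells. Dorsal libraries had 5, 1 and 3 reads, which is 0.20, 0.03 and 0.14 CPM, and ventral libraries 36.9, 3.48 and 11.0 CPM. Intermediate libraries held 0.58, 14.6 and 0.12 CPM, so a single library carried that mean. Dorsal and ventral did not overlap (-7.11 ± 1.84, adjusted p = 0.0341). Without ventral CA1 replicate 1 the difference was -5.86 (adjusted p = 0.0168), and it was not called without ventral CA1 replicate 3 (adjusted p = 0.0634), without any 1 of the dorsal libraries (adjusted p = 0.118 to 0.142) or without the filter on low counts (adjusted p = 0.107).

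Deep CA1 libraries held 1.28, 3.26 and 2.28 CPM of Hs3st2 against 0 reads in superficial cells, at least 17.2-fold higher at the floor of 3 reads per library. The adjusted p was 0.0294, and it rose to 0.0532 to 0.176 when any 1 of the 6 libraries was left out. Interneuron markers were higher in the deep libraries, and the proximal library with 259.6 CPM of them held 11.8 CPM of Hs3st2 where its partners held 0 and 1 read. The part of interneuron RNA in these 2 results was not tested. DG libraries held at most 0.38 CPM. Averaged over dorsal and ventral cells, CA1 exceeded DG by 3.47 ± 0.79 on the log2 scale (adjusted p = 0.00169), and by 2.88 without ventral CA1 replicate 1. The libraries overlapped: the dorsal CA1 mean of 0.12 CPM was below the dorsal DG mean of 0.26 CPM, and the excess lay in ventral CA1. CA3 exceeded DG by 3.13 ± 0.75 (adjusted p = 0.00247), with libraries of 0.38 to 3.45 CPM that lay just above those of DG. Interneurons exceeded dorsal CA1 by 5.30 ± 1.08 (adjusted p = 0.00223) with overlapping libraries, and by 4.64 without PV replicate 1. The mean of ventral CA1 was 17.1 CPM, against 23.3 CPM in PV and 1.00 CPM in SST cells, and was not tested against them.

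Sulf2, the endosulfatase with the higher level here, split the populations into separate tiers. Ventral CA3, dorsal CA3, accumbens-projecting, amygdala-projecting, deep CA1 and SST cells had means of 278.3, 255.3, 233.3, 220.5, 179.2 and 146.0 CPM, with overlapping neighbours. The lowest SST library, at 126.5 CPM, was above the highest intermediate CA1 library, at 106.9 CPM. Both DG populations were at the bottom with means of 2.05 and 2.096 CPM. Per length, accumbens-projecting cells had 128.9 ± 36.6 FPKM of Sulf2 (SD, n = 3), the highest population mean of any of the 10 members. The highest of Hs3st4 was 107.0 ± 10.7 FPKM in dorsal CA3 and that of Ndst4 99.6 ± 22.4 FPKM in deep CA1.

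The 6 CA3 libraries held 236.2 to 314.8 CPM of Sulf2 with a median of 260.1, the 6 CA1 libraries 23.6 to 65.3 with a median of 43.0, and the 6 DG libraries 0.54 to 4.65 with a median of 1.89. None of the 3 regions overlapped another. CA3 was 6.49-fold above CA1 (-2.70 ± 0.27, CA1 over CA3, adjusted p = 1.9e-07) and 126.3-fold above DG (6.98 ± 0.34, adjusted p = 1.37e-12), and CA1 was 19.5-fold above DG (4.28 ± 0.31, adjusted p = 8.17e-10). Without dorsal DG replicate 1, which held 4.65 CPM, the 2 differences from DG were 7.73 and 5.03.

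Within CA1, Sulf2 was higher in deep than in superficial cells. Superficial libraries held 32.4, 15.9 and 30.4 CPM and deep libraries 182.5, 122.9 and 232.2 CPM. The groups were apart, and deep cells were 7.002-fold higher (-2.81 ± 0.30, superficial over deep, adjusted p = 0.000607). Deep libraries also held more interneuron markers, with a mean sum of 631.9 CPM against 6544 CPM in SST cells, where Sulf2 was 126.5 to 163.6 CPM. Whether interneuron RNA contributed to the deep Sulf2 level was not tested. Intermediate libraries, at 53.3, 106.9 and 83.9 CPM, lay above dorsal ones, at 43.6, 23.6 and 32.3 CPM. The ratio was 2.50 (-1.32 ± 0.27, adjusted p = 0.00485), and the call was lost without intermediate CA1 replicate 2 (adjusted p = 0.0543). Ventral libraries, at 43.8, 42.3 and 65.3 CPM, overlapped the dorsal ones (-0.65 ± 0.27, adjusted p = 0.117).

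Interneurons expressed Sulf2 above dorsal CA1, 3.11-fold (1.64 ± 0.23, adjusted p = 0.000163) and without overlap. SST libraries, at 148.0, 163.6 and 126.5 CPM, were also apart from PV libraries, at 76.4, 75.6 and 60.6 CPM. The difference was -1.05 ± 0.23, PV over SST (adjusted p = 0.0371), and it lost its call, with an adjusted p of 0.102 to 0.168, when PV replicate 1, 2 or 3 or SST replicate 1 or 2 was left out. SST replicate 2 was the library with 722.1 CPM of oligodendrocyte markers. All PV libraries held Sst, at 239.6 to 920.1 CPM, and its part in the PV and SST difference was not tested.

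Sulf1 was found at 10 CPM or more on average in 2 populations. Amygdala-projecting libraries held 39.1, 28.7 and 35.5 CPM and accumbens-projecting libraries 14.3, 38.2 and 16.7 CPM. The 2 groups overlapped (0.57 ± 0.79, adjusted p = 0.864). Ventral CA1 cells, which the labels do not select by projection, held 0.76, 2.75 and 15.7 CPM. Dorsal CA1 and distal CA1 had 0 reads in all 3 libraries each, which at 3 reads per library allows up to 0.12 and 0.13 CPM on average. Ventral CA1 was at least 53.9-fold above dorsal CA1 at that floor, and at least 14.8-fold without ventral CA1 replicate 3, the library of 15.7 CPM. The gene failed the filter on low counts in 6 of the 7 comparisons within CA1, and DESeq2, run without it, called 2 of them, between ventral CA1 and each of dorsal and intermediate CA1. The 5 endothelial markers summed to 52.9 to 100 CPM in amygdala-projecting and 12.2 to 56.2 CPM in accumbens-projecting libraries and to at most 4.74 CPM in ventral CA1. Kdr made up most of that sum, with 31.3 to 96.2 and 10.9 to 53.7 CPM, and Cldn5 had 0 CPM in all 6 libraries. Of the 5 markers, 1 averaged under 1 CPM in amygdala-projecting cells, and 4 did in accumbens-projecting cells and in ventral CA1. The 3 oligodendrocyte precursor markers summed to 1.80 to 19.4 and 7.91 to 28.5 CPM against at most 1.62 CPM in ventral CA1. Cspg4 made up most of it in 5 of the 6 libraries, and Pdgfra was at 0 in all 6. Of these 3 markers, 1 averaged under 1 CPM in amygdala-projecting cells, 2 in accumbens-projecting cells and 3 in ventral CA1. The 3 mural markers reached 129.5 CPM in an accumbens-projecting library, mostly Rgs5, and Sst reached 516.1 CPM in another, against at most 2.54 CPM in ventral CA1. The part of these transcripts in the Sulf1 levels was not tested.

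PV libraries held 1.48, 7.64 and 0.04 CPM of Sulf1 and SST libraries 0.77, 2.57 and 0.20 CPM. Against the 0 reads of dorsal CA1, interneurons as a group were at least 17.8-fold higher at the floor of 3 reads per library (adjusted p = 0.0189), and at least 8.50-fold without PV replicate 2 (adjusted p = 0.0403). PV replicate 3, with 1 read, was itself below the floor. Ventral CA1 had a higher mean, 6.41 CPM, than PV and SST cells, at 3.05 and 1.18 CPM, and was not tested against them. The call was lost without any 1 of the 3 dorsal CA1 libraries (adjusted p = 0.0565 to 0.059).

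**Figure D5:**
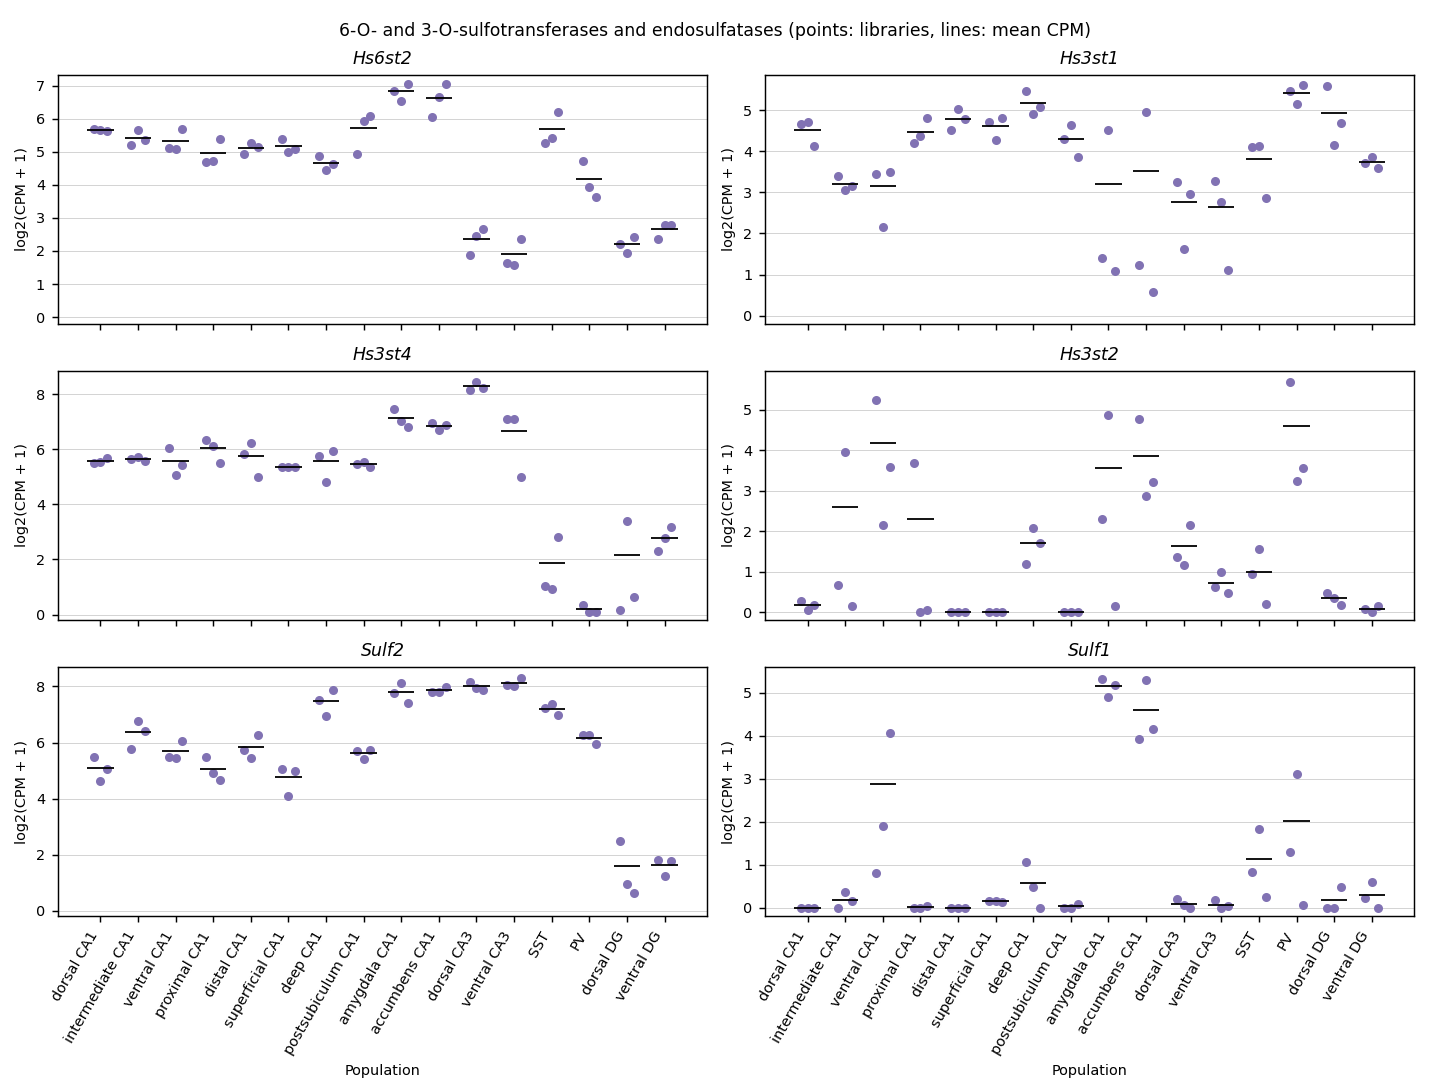
Hs6st2, Hs3st1, Hs3st4, Hs3st2, Sulf2 and Sulf1 in each library as log2(CPM + 1), with a line at the mean CPM of each population. Hs6st2 is low in CA3 and DG, Hs3st4 is highest in dorsal CA3, Sulf2 has its 2 highest means in ventral and dorsal CA3, and Sulf1 is found mainly in the amygdala- and accumbens-projecting cells.

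Other genes of heparan sulfate metabolism were followed in 4 lists of 46 genes, also chosen with earlier results of these data known. Of 11 genes that assemble the chain, 4 were called between dorsal and ventral CA1, 2 in each direction, with a median log2 difference of 0.12 beside -0.01 over all genes. Extl2, a regulator of chain start, averaged 101.1 CPM in dorsal cells against 40.2 CPM in ventral ones (1.29, adjusted p = 0.00048), while Ext2, a subunit of the chain polymerase, was at 41.1 and 87.2 CPM (-1.13, adjusted p = 0.0138). Of 7 core protein genes tested there, 6 were called, 5 of them in favour of ventral and 1 of dorsal cells, with a median of -1.10. They included syndecan Sdc2 (14.3 and 31.6 CPM), Sdc3 (34.8 and 72.4 CPM) and glypican Gpc1 (20.3 and 44.1 CPM). Among 8 breakdown genes 3 were called, all higher in ventral cells, including the lysosomal sulfatase Ids (306.4 and 513.6 CPM). Of 7 other modifying enzymes and sulfate donors 0 were called by edgeR, 1 had an unadjusted p under 0.05 and DESeq2 called 1. Over the 4 lists 39.4% of 33 genes tested were called, beside 15.1% of all genes. Extl2 and Ids kept their calls under every alternative run. The calls of Ext2, Sdc2, Sdc3 and Gpc1 were lost in the single fit of all libraries (adjusted p = 0.799, 0.57, 0.0525 and 0.133) and also when 1 library was left out: dorsal CA1 replicate 2 or 3 or ventral CA1 replicate 3 for Ext2 (adjusted p = 0.0581 to 0.0736), dorsal CA1 replicate 2 for Sdc2 (adjusted p = 0.0514), ventral CA1 replicate 3 for Sdc3 (adjusted p = 0.064), and dorsal CA1 replicate 1 or 2 or ventral CA1 replicate 1 for Gpc1 (adjusted p = 0.0536 to 0.114).

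CA1 and DG differed in 6 of 11 assembly genes, 4 higher in CA1, and in 3 of 8 other modifying genes, 1 higher in CA1. Xylt1, which places the first sugar, was at 25.2 CPM in CA1 and 1.85 CPM in DG (3.74, adjusted p = 2.32e-05), and Hs6st3, another 6-O-sulfotransferase, was at 51.7 and 2.42 CPM (4.42, adjusted p = 1.42e-08). Hs6st3 was also higher in CA1 than in CA3, at 22.3 CPM (1.43, adjusted p = 0.00479), the same directions as Hs6st2. Glypican Gpc4 followed another order, with 170.8 CPM in DG, 68.3 in CA1 and 5.0 in CA3, and all 3 of its differences were called. Over the 4 lists, 18 of 40 genes tested, or 45.0%, were called between CA1 and DG, beside 33.1% of all genes. CA3 and DG differed in 5 of 11 assembly, 3 of 8 other modifying, 5 of 12 core protein and 2 of 9 breakdown genes, which is 37.5% and near the 36.5% of all genes. For CA1 and CA3 the counts were 2 of 11, 1 of 8, 5 of 12 and 2 of 9, or 25% beside 13.5% of all genes. Without dorsal DG replicate 3 the Xylt1 difference was 5.93. Gpc4 between CA1 and DG lost its call without the filter on low counts (adjusted p = 0.0608) and in the single fit of all libraries (adjusted p = 0.0743).

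Interneurons differed from dorsal CA1 in 8 of 11 assembly genes, 4 in each direction, in 6 of 10 other modifying genes, 3 in each direction, in 6 of 9 core protein genes, 3 in each direction, and in 4 of 8 breakdown genes, all higher in interneurons. These are 63.2% of the 38 list genes tested, beside 32.7% of all genes. The polymerase subunit Ext1 was at 13.97 CPM in interneurons and 142.8 CPM in dorsal CA1 (-3.35, adjusted p = 1.59e-06), and Hs6st3 at 3.11 and 57.0 CPM (-4.43, adjusted p = 7.52e-07). Glce, the epimerase that makes iduronic acid, was at 125.9 and 40.6 CPM (1.49, adjusted p = 0.000161). Its interneuron mean pooled PV cells, at 69.2 CPM, and SST cells, at 182.6 CPM, whose libraries did not overlap. Gpc6 was at 32.2 and 0.35 CPM (6.43, adjusted p = 5.61e-06, and 7.20 without dorsal CA1 replicate 2). Of 32 list genes tested between superficial and deep CA1, edgeR called 0, 3 had an unadjusted p under 0.05 and DESeq2 called 2. Between proximal and distal CA1 edgeR called 1 of 34, Sdc3, at 92.2 CPM in proximal and 28.8 CPM in distal cells (1.70, adjusted p = 0.0061), which was not called without the proximal libraries carrying other cells' markers (adjusted p = 0.191).

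Among the 45 pairs of members, Hs3st2 and Sulf1 were most alike over the 16 population means (Pearson r = 0.75, Spearman rho = 0.68), followed by Ndst1 and Sulf2 (0.69 and 0.49), Ndst3 and Hs6st2 (0.68 and 0.61) and Ndst1 and Hs3st4 (0.67 and 0.62). Hs3st1 and Hs3st4 were the most opposed (-0.55 and -0.59). Of 9822 other genes with at least 10 CPM somewhere, the one closest to Hs3st4 was Camk4 (r = 0.97, rho = 0.75), to Sulf2 Armh4 (0.94 and 0.85), to Sulf1 Tpbg (0.92 and 0.91), to Ndst3 Htr5b (0.90 and 0.84), to Ndst4 Zbtb16 (0.89 and 0.71), to Hs3st1 Osbpl3 (0.89 and 0.86), to Ndst1 Brinp2 (0.88 and 0.80), to Hs3st2 Unc5b (0.87 and 0.77) and to Ndst2 Def8 (0.84 and 0.57). For Hs6st2 it was Mpped1 (0.94 and 0.78), one of the CA1 markers. These values describe shared profiles over populations that share region and depth, and carry no test.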

How the data were processed

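RNA of hand-sorted neurons was turned into amplified cDNA libraries, per the labels' protocols. The deposited files are a table of whole read counts for each Ensembl gene and a tracking table in the format of Cuffdiff, which per the file headers holds FPKM values and expected counts (raw fragments). The latter served only to match replicate numbers between the tables. Builds NCBIM37 and mm9 and the tools TopHat2 2.0.6, HTSeq, Cuffdiff 2.1.1 and DESeq2 appear in the submitters' processing notes with no roles. The sources used here do not say whether counting used strand. In the GENCODE M21 annotation Ndst1 overlaps Rps14 and Sulf2 overlaps Ncoa3 on the opposite strand, so reads in those overlaps cannot be assigned. Reads outside annotated genes were 20.4% to 46.7% of uniquely mapped reads and, like ERCC spike-ins, stayed out of library sizes.

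Counts were fitted with edgeR 4.0.16 in R 4.3.3 (quasi-likelihood, robust, TMM, filterByExpr, Benjamini-Hochberg over all genes tested), with a call at an adjusted p under 0.05. Standard errors are the log2 difference divided by the root of the F statistic. Contrasts between regions average dorsal and ventral cells. Alternatives were DESeq2 1.42.0, its size factors, no filter, a replicate block, 1 fit of all libraries and leaving out each library. The fitting was tested on simulated data. Likeness is Pearson's r of log2(CPM + 1) population means. FPKM was used for levels between genes. The members and gene lists were chosen with earlier results of these data known. Named were all 10 members, for each list up to 3 called genes of largest difference with at least 10 CPM, and for each member the most alike genes, without sex-linked, ribosomal and unnamed genes. Libraries of a group differed by more than sampling noise (lowest chi-square per degree of freedom 12.3). Where 1 library of a group was left, its spread was taken from the other groups of the fit.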

Additional observations from a re-analysis of the deposited data

Results flagged for a closer look

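The 6 results here differed between regions by the test of the interaction of region and long axis, the difference dorsal minus ventral in CA1 less the same difference in another region. Against CA3 these were Ndst4 at 4.67, Hs3st2 at -8.79 and Sulf1 at -10.17 on the log2 scale, with edgeR adjusted p-values of 0.00439, 0.000576 and 0.0473. Against DG they were Ndst3 at 2.11, Hs3st2 at -9.16 and Sulf1 at -9.10, with adjusted p-values of 0.00211, 0.000957 and 0.0412. Ndst4 was higher in dorsal cells of CA1 and in ventral cells of CA3, whereas Ndst3 was higher in ventral cells of CA1 and DG and differed in size. For Hs3st2 the fitted values rest on 9 reads in dorsal CA1, and both became smaller without ventral CA1 replicate 1, at -7.56 and -7.92. In CA3 and DG Hs3st2 was low in dorsal and ventral cells, with group means of 2.09 and 0.64 CPM and of 0.26 and 0.06 CPM. The Sulf1 values are no measure of size, since dorsal CA1 had 0 reads and the CA3 and DG groups had 4, 4, 3 and 11. They lost their call under 11 of 17 alternatives against CA3 and 9 of 17 against DG. These included the loss of ventral CA1 replicate 3 (-8.34 and -7.26, adjusted p = 0.208 and 0.143), the library that held 136 of the 157 Sulf1 reads of ventral CA1, of ventral CA1 replicate 2 (adjusted p = 0.0619 and 0.0537) and of any 1 dorsal CA1 library (adjusted p = 0.103 to 0.108 and 0.0783 to 0.0833). Against CA3 they also included each CA3 library but dorsal replicate 3 (adjusted p = 0.0616 to 0.264). Against DG they included ventral DG replicates 1 and 3 (adjusted p = 0.0802 and 0.0715) and dorsal DG replicate 3, without which the value was -4.81 (adjusted p = 1). The remaining one in each case was the replicate block.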

How the results depend on the processing

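Of 46 calls of a member in a comparison, 28 held under all alternatives run, 18 were lost under 1 or more, and none changed sign. Of 69 such calls for the genes of largest difference in the 4 lists, 31 were lost under 1 or more. Samples were treated as unpaired in the main fits. No comparison had a correlation over 0.1 in every pair of same-numbered libraries, a check that cannot exclude pairing. The replicate block left 1 member called between PV and SST cells instead of 2. It ended 5 calls: Sulf2 there (adjusted p = 0.0501), Hs3st2 between dorsal and ventral CA1 (0.0557) and between superficial and deep CA1 (0.0578), and Sulf1 in both interactions (0.0864 against CA3 and 0.111 against DG). A single fit of all 48 libraries called 2 members between dorsal and ventral CA1 instead of 4, Hs3st2 of those 4 and Sulf1, which had failed the filter before (adjusted p = 0.0008), and 0 between dorsal and intermediate, intermediate and ventral, and proximal and distal CA1. DESeq2 called 4 members between dorsal and intermediate CA1, 2 between intermediate and ventral CA1, 1 between postsubiculum-projecting and dorsal CA1 and 6 between PV and SST cells. Without the filter on low counts 3 members were called between intermediate and ventral CA1 and 4 between PV and SST cells. With libraries carrying markers of other cells left out, 0 were called between proximal and distal CA1. Leaving out 1 library at a time gave 2 to 5 members for dorsal and ventral CA1, 1 to 3 for dorsal and intermediate, 1 to 2 for intermediate and ventral, 1 to 3 for dorsal and ventral DG, and 0 to 2 for PV and SST cells. The cause was not tested.

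A difference that was not called took the other sign: Sulf2 in dorsal against ventral DG was 0.02, from -1.46 without dorsal DG replicate 1 (adjusted p = 0.0272) to 0.46 without dorsal DG replicate 3 (adjusted p = 0.481). Over all genes, counts moved most between amygdala- and accumbens-projecting cells, with 3 by edgeR, 379 by DESeq2, 354 in the fit of all libraries and 180 without the filter, and between proximal and distal CA1, with 135 by edgeR, 752 by DESeq2 and 12 without the libraries carrying other cells' markers. Of 160 member levels, 5 moved by over 1 SD without TMM scaling, all in dorsal CA3. Depth limits Hs3st2 and Sulf1, which had 0 reads in 3 and in 2 populations.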
